A study of Mus musculus with 9 samples.

Results

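The 10 immediate early genes Fos, Fosb, Junb, Egr1, Egr3, Egr4, Arc, Nr4a1, Npas4 and Ier2 were measured in the layers of mouse piriform cortex, the olfactory cortex. They were chosen by name. For each gene, the Ensembl transcript with the highest mean count over all samples was used, 10 of 95533 counted transcripts. Samples were 3 replicates each of layers A, B and C, cut by laser capture from fresh-frozen brain sections of wild type C57BL/6 mice. All groups share that genotype and strain, no treatment is named, and the labels give an age of 8 weeks where the study's methods give an older one. Which letter stands for which of the numbered layers is not given in the sources used here. How many mice were used, and whether replicates of a layer came from separate mice, is not stated. The p-values below therefore measure the spread between these samples, which may be technical, and they are too small where replicates of a layer share an animal. Whether samples of different layers share an animal is not stated either, and the main fit holds no such pairing.

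Immediate early genes are switched on within minutes of a neuron's excitation and need no new protein for it. Calcium entry and kinase signals activate factors already bound at their promoters, among them CREB and SRF. Most of the genes encode transcription factors: Fos and Fosb pair with Jun proteins such as Junb to form AP-1, while Egr1, Egr3 and Egr4 are zinc-finger proteins. Nr4a1 encodes an orphan nuclear receptor and Npas4 a bHLH-PAS factor that is largely specific to neurons and responds to calcium. Arc differs from these, since it encodes a synaptic protein that acts in AMPA receptor endocytosis, and its mRNA is known to travel into dendrites. Ier2 encodes a small nuclear protein with rapid induction by growth factors.

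Because CREB is a shared activator, the promoters of the members were read first, in RefSeq sequence of GRCm38.p6. The table used here held the 250 bases before the gene start for 6 of the 10 members. The half-site of the cAMP response element, TGACG on either strand, was in 6 of these 6, and 17.8% of 32851 promoters of the same length held it. The motif holds a CpG, and the GC content of the 6 promoters was 58.4% to 74.4% beside a median of 52.4% over all promoters, a difference whose part in that count was not tested. For Npas4 the RefSeq start lies 345 bases inside the counted transcript, so that its window is within that transcript and is not printed. The stretches that carry the half-sites of the other 5 follow, 5′ to 3′ on the strand of the gene. Capitals mark the half-site, read as TGACG or as CGTCA from the other strand, and in Fos also the TATA box at its end.
Fos, chr12:85473751-85473872, plus strand: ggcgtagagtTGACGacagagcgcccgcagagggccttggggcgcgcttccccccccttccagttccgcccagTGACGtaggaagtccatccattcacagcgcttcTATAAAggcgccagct
Fosb, chr7:19310091-19310115, minus strand: gagttgcgggTGACGcaagcgcggg
Junb, chr8:84978840-84978864, minus strand: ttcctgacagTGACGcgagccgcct
Egr4, chr6:85513684-85513776, minus strand: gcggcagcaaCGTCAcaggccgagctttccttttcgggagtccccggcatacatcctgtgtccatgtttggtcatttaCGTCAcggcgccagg
Nr4a1, chr15:101266603-101266820, plus strand: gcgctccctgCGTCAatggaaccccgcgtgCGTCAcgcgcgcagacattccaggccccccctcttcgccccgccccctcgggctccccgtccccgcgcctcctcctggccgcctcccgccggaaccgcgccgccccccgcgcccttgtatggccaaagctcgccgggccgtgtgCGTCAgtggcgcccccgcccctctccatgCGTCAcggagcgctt

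Nr4a1 held 4 half-sites, Fos, Egr4 and Npas4 held 2 each, and Fosb and Junb held 1 each. The full element TGACGTCA was in 0 of the 6 (1.55% of all promoters), as were the CArG box, which SRF binds (1.47%), and the AP-1 site TGANTCA (6.75%). Fosb and Nr4a1 each held the EGR site GCGNGGGCG, which 4.70% of all promoters held. In Fosb it began 50 bases before the start, next to the half-site at 60. Fos held the TATA box TATAAA, searched on the strand of the gene, 33 bases before its start, a motif in 7.59% of all promoters. These matches describe letters within the window and are not measured binding. Sequence farther than 250 bases from the start, and the members without an entry, were not searched. A count of 0 therefore does not show that a gene lacks the site.

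The depth behind the values was uneven. Total counts were 23104306 to 76471683 per sample, and the mitochondrial ribosomal RNAs took 55.3% to 70.2% of them in A, 12.8% to 28.1% in B and 20.5% to 57.1% in C. Counts outside mitochondrial transcripts were therefore 6929782 in layer A replicate 1 and 60245059 in layer C replicate 3. Levels are given as CPM, counts scaled to 1e6 counts of a library whose size is adjusted by the TMM method, and 3 counts, taken as the floor, correspond to 0.0256 to 0.254 CPM. Each member passed the filter of at least 10 counts in at least 3 samples. Layer B replicate 3 differed from the other replicates of its layer. Its log2 CPM correlated with theirs at 0.888 and 0.880 across transcripts, beside 0.978 between those. These values were only a little below the lowest within layer A (0.894 to 0.913) and within layer C (0.905 to 0.960). Differences between A and B that change with layer B replicate 3 are given below with and without that sample.

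Of the 10 members, 3 were lower in A than in B (edgeR's quasi-likelihood test, adjusted p under 0.05), namely Egr1, Fosb and Egr4, and none was higher. The background was 5.83% of all 56416 tested transcripts called lower in A, or 7.35% of the 22263 transcripts that were the highest of their gene, while 12.8% of the latter were called higher in A. The same 3 members were lower in A than in C, where 4.35% of all tested transcripts and 5.46% of the highest transcripts were called lower and 8.87% higher in A. The median log2 fold change of the members was -1.42 for A against B and -1.28 for A against C, beside -0.14 and -0.01 over the highest transcripts of all genes. In bulk tissue, fewer cells that express a gene and less of its RNA per cell cannot be told apart. Between layers B and C, 0 members passed the edgeR test, as did 0% of all tested transcripts. At an unadjusted p under 0.05 edgeR counted 0 members and 2316 transcripts there, and DESeq2 called 0 members and 130 transcripts.

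**Figure D1:**
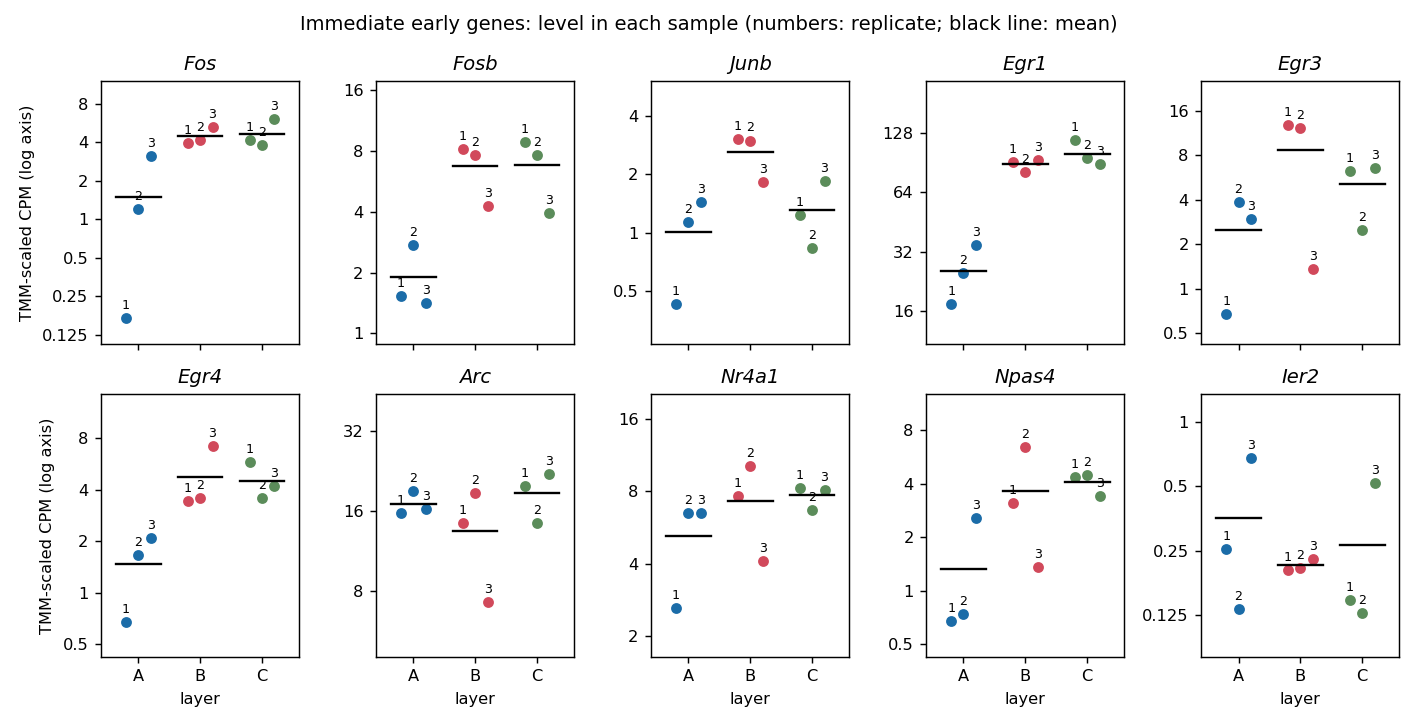
Level of each immediate early gene in each of the 9 samples, as TMM-scaled CPM on a log2-spaced axis that differs between panels, against the layer; points are samples numbered by replicate and black lines the mean of 3. The 3 layer A samples of Egr1 lie between 17.4 and 34.6 CPM and the other 6 between 81.2 and 117.5 CPM, whereas the layers overlap for Arc.

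Egr1, an inducible zinc-finger factor widely used as a marker of neuronal activity, was the most abundant member and the one with the smallest p-values. Its level was 17.4, 24.8 and 34.6 CPM in layer A replicates 1 to 3, 91.2, 81.2 and 93.4 CPM in layer B, and 117.5, 95.6 and 89.0 CPM in layer C. The layer A samples did not overlap with any other sample, and layers B and C overlapped. Egr1 was 3.45-fold lower in A than in B (log2 fold change -1.79 ± 0.303 SE, adjusted p = 0.00123, edgeR's quasi-likelihood test) and 3.92-fold lower than in C (-1.97 ± 0.305 SE, adjusted p = 0.00235). Both calls were kept with each of the 9 samples left out in turn and under each alternative run. The gene lies on chromosome 18, and its pair of annotated transcripts had the same counts in every sample, so that the transcripts cannot be told apart.

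Egr4, a related factor on chromosome 6 (85511121 to 85513589, GRCm38), was also lower in layer A, at a lower level. Layer A held 0.677, 1.67 and 2.09 CPM, layer B 3.46, 3.58 and 7.26 CPM, and layer C 5.79, 3.57 and 4.22 CPM. No layer A sample reached the lowest sample of the other layers. The log2 fold change was -1.64 ± 0.471 SE against B (adjusted p = 0.0257, edgeR) and -1.57 ± 0.471 SE against C (adjusted p = 0.0425). These calls were less firm than those of Egr1. The call against B was lost without layer A replicate 1, layer A replicate 2 or layer B replicate 3, and the call against C without layer A replicate 1 or 2 or any of the layer C replicates. With only the 6 samples compared, the call against B was lost as well (adjusted p = 0.0577), and total counts without mitochondrial transcripts ended both (adjusted p = 0.0535 and 0.0721, edgeR).

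Egr3, also of this family, varied widely within layers A and B. It was at 0.677, 3.87 and 2.97 CPM in layer A, at 12.8, 12.2 and 1.35 CPM in layer B, and at 6.31, 2.49 and 6.58 CPM in layer C. A and B overlapped only through layer B replicate 3, which was below 2 of the layer A samples. The log2 fold change against B was -1.78 ± 0.703 SE (adjusted p = 0.10, edgeR), and Egr3 was called without that replicate at -2.23 (adjusted p = 0.00563). Against C the value was -1.02 ± 0.694 SE (adjusted p = 0.411). The counted transcript of Egr3 is 1509 bases long and ends 2659 bases before the annotated end of the gene, a point taken up with the replicates below.

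Fosb, a partner of Jun proteins whose truncated form builds up with repeated activity, was the other called member. On chromosome 7 (19302696 to 19310051), it was at 1.52, 2.74 and 1.42 CPM in layer A, 8.24, 7.62 and 4.29 CPM in layer B, and 8.91, 7.65 and 3.95 CPM in layer C. Its highest sample in A was below its lowest in B and in C. The level in A was 3.57-fold lower than in B (log2 fold change -1.84 ± 0.443 SE, adjusted p = 0.0103, edgeR) and 3.62-fold lower than in C (-1.86 ± 0.444 SE, adjusted p = 0.0154). The call against B was kept with each sample left out in turn, and the call against C was lost without layer A replicate 1, layer A replicate 3 or layer C replicate 1.

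Fos, the most used marker of recently active neurons, had a difference of similar size that did not pass. It was at 0.169, 1.202 and 3.12 CPM in layer A, 3.93, 4.16 and 5.29 CPM in layer B, and 4.17, 3.83 and 6.05 CPM in layer C. The layer A samples lay below the other 6, but spread 18.4-fold among themselves, and replicate 1 rested on 2 counts, under the floor. The log2 fold change was -1.48 ± 0.592 SE against B (adjusted p = 0.106, edgeR) and -1.56 ± 0.594 SE against C (adjusted p = 0.110). Without replicate 1 of layer A the values were -1.01 and -1.09 (adjusted p = 0.219 and 0.216). Without replicate 3, which leaves layer A samples of 2 and 18 counts, Fos passed in both comparisons at -2.65 and -2.72. Of 11 fits under other settings, Fos passed in 3 against B and in 2 against C. Among these was DESeq2, at adjusted p = 0.0495 against B and 0.0447 against C.

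Junb, an AP-1 subunit on chromosome 8, had its highest samples in layer B. It was at 0.423, 1.14 and 1.45 CPM in A, 3.05, 3.00 and 1.83 CPM in B, and 1.23, 0.829 and 1.85 CPM in C. Layers A and B did not overlap, and layer C overlapped with both. The log2 fold change was -1.34 ± 0.511 SE for A against B (adjusted p = 0.0897, edgeR), which passed without layer B replicate 3, and -0.36 ± 0.511 SE for A against C (adjusted p = 0.740). Between B and C it was 0.98 ± 0.493 SE (unadjusted p = 0.0650 and adjusted p = 1, edgeR), the largest difference of any member between those layers.

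Npas4 and Nr4a1 were lower in layer A by their means without passing the test. Npas4 was at 0.677, 0.735 and 2.57 CPM in A, 3.10, 6.40 and 1.35 CPM in B, and 4.34, 4.47 and 3.42 CPM in C. A overlapped with B through layer B replicate 3 and did not overlap with C. The log2 fold changes were -1.36 ± 0.586 SE against B (adjusted p = 0.133, edgeR) and -1.53 ± 0.590 SE against C (adjusted p = 0.114), and both passed without layer B replicate 3 (-1.68 and -1.50) or layer A replicate 3 (-2.35 and -2.52). Without layer B replicate 2 the value against B was -0.65 (adjusted p = 0.541). Nr4a1 differed less, with 2.62, 6.48 and 6.51 CPM in A, 7.66, 10.2 and 4.10 CPM in B, and 8.27, 6.70 and 8.12 CPM in C. Its log2 fold changes were -0.48 ± 0.417 SE and -0.55 ± 0.418 SE (adjusted p = 0.496 and 0.470, edgeR), with 95% intervals of -1.36 to 0.41 and -1.44 to 0.33. Against B it was -0.71 without layer B replicate 3 and -0.14 without layer B replicate 2.

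Arc passed in no comparison, and its mean in layer A lay between those of C and B. The level was at 15.7, 19.0 and 16.3 CPM in A, 14.4, 18.7 and 7.26 CPM in B, and 19.8, 14.4 and 21.9 CPM in C. The 3 layers overlapped. The log2 fold change of A against B was 0.34 ± 0.351 SE, with an 95% interval of -0.41 to 1.08 (adjusted p = 0.580, edgeR), and against C it was -0.14 ± 0.350 SE, with an interval of -0.89 to 0.60 (adjusted p = 0.864). Without layer B replicate 3 the value against B was 0.09, and without layer B replicate 2 it was 0.68. The intervals leave out a decrease as large as the 3.45-fold fitted for Egr1. The sign against B turned with scaling to total counts alone, which gave -0.82 and moved the median of all transcripts to -1.19. Arc lies on chromosome 15 (74669083 to 74672568), and its annotated transcripts, 3055 and 3054 bases long, had the same counts in every sample.

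Ier2 was near the floor in most samples, at 0.254, 0.134 and 0.673 CPM in A, 0.202, 0.208 and 0.229 CPM in B, and 0.147, 0.128 and 0.520 CPM in C. Its counts were 2 to 61 per sample. The log2 fold changes were 0.83 ± 0.796 SE against B and 0.40 ± 0.784 SE against C, with 95% intervals from -0.86 to 2.53 and from -1.26 to 2.07. A difference was not detectable at this depth, and the sign of both turned without layer A replicate 3.

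**Figure D2:**
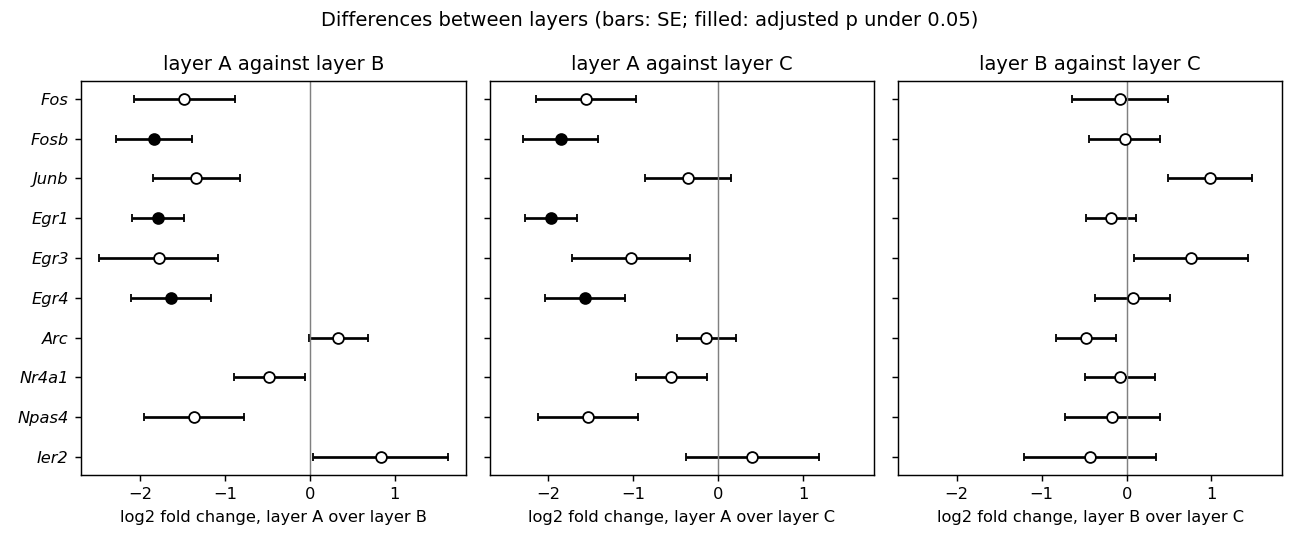
Fitted log2 fold changes of the 10 genes on the horizontal axis, for layer A against B, A against C and B against C; bars are standard errors and filled points passed an adjusted p of 0.05. Egr1, Fosb and Egr4 are filled at -1.57 to -1.97 in both comparisons with layer A, and no point is filled between B and C.

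Counting samples that do not overlap gave a similar picture. For A against B, every layer A sample was below every layer B sample for 5 members (Fos, Fosb, Junb, Egr1 and Egr4), a pattern held by 18.1% of the highest transcripts. For A against C it was 6 members (Fos, Fosb, Egr1, Egr4, Nr4a1 and Npas4), beside 16.3% of the highest transcripts. In the opposite direction the count was 0 in both comparisons, and the share of all genes in that direction was not computed, so this 0 cannot be set against a background. The comparisons share the layer A samples and are not independent. When the layers were tested for any difference, Egr1 (adjusted p = 0.00121, edgeR), Fosb (0.0169) and Egr4 (0.0493) passed, and the other 7 members had adjusted p-values of 0.168 to 0.808. In that test 8061 of all 56416 tested transcripts passed.

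Levels were divided by transcript length in kilobases to set different genes side by side, which is a rough guide only. The counted transcripts of Egr3 and Junb end 2659 and 2426 bases before the annotated end of their genes. Egr1 has transcripts of 4484 and 3036 bases with the same counts, of which the longer was used. Over all samples Egr1 was first at 16.0 CPM per kb, followed by Arc at 5.36, Egr3 at 3.62, Nr4a1 at 2.72, Fos at 1.68, Egr4 at 1.67, Fosb at 1.36, Junb at 0.909, Npas4 at 0.830 and Ier2 at 0.182 CPM per kb. The neighbours Fos and Egr4 were close and overlapped in each layer. Egr1 was first in each layer, by unequal margins. In layer A, Arc at 5.56 CPM per kb was next to Egr1 at 5.71, whereas in layer B the levels were 4.40 and 19.8 CPM per kb and in layer C 6.12 and 22.5. In layer B the mean of Egr3, at 5.82 CPM per kb, was above that of Arc.

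The same contrast was expressed as a ratio of counts within each sample, which no choice of library scaling changes. This measure was chosen after the levels of Arc had been seen, and the 9 ratios share the counts of Arc. The log2 ratio of Arc to Egr1 was -0.54 ± 0.486 (SD, n = 3) in A, -2.82 ± 0.794 in B and -2.44 ± 0.373 in C. The lowest sample of A, at -1.09, was above the highest of the other 6, at -2.02. Samples of A lay above those of B and C also for the ratios to Fos, Fosb and Egr4, 4 of 9 partners in all. Each of these 4 had p = 0.0238 in an exact two-sided permutation test of 3 against 6 samples, the smallest that this design allows. After adjustment over the 9 partners the value was 0.0536, so that none passed 0.05. By level these 4 already had every layer A sample below all others, so their ratios are no separate support. The mean difference was 2.43 for Fos, 2.09 for Egr1, 1.97 for Fosb and 1.86 for Egr4 on the log2 scale. Without layer A replicate 1, in which Fos had 2 counts, these were 1.41, 1.90, 1.91 and 1.45, and without layer B replicate 3 they were 2.17, 1.88, 1.88 and 1.51, with no overlap for these 4 partners in either case. For Nr4a1, another gene with a small difference between layers, it was 0.74, and for Ier2 it was -0.33.

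**Figure D3:**
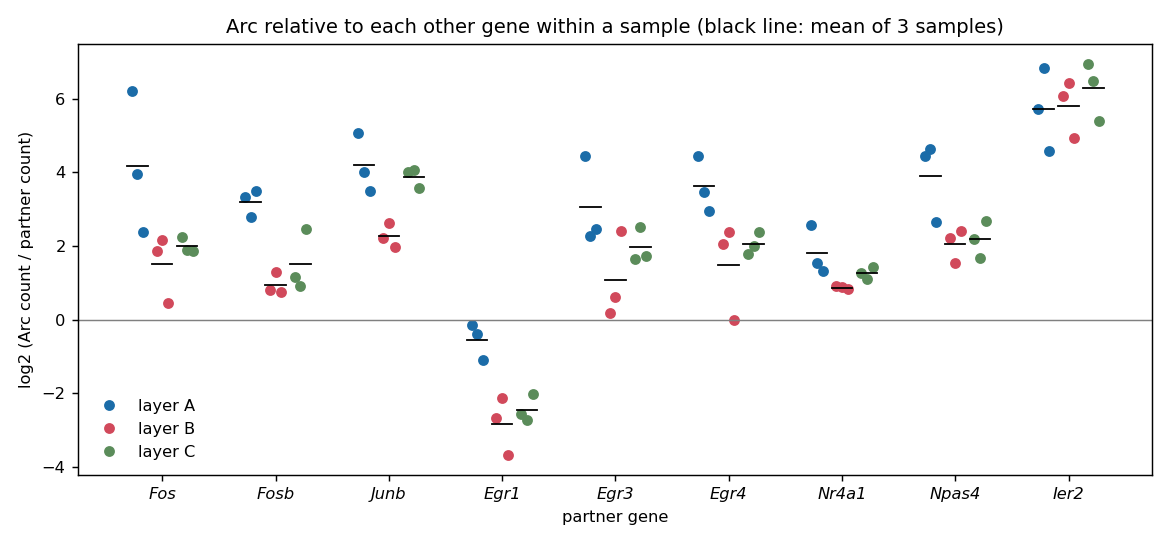
Log2 ratio of the count of Arc to the count of each other gene in the same sample, with a pseudocount of 0.5, against the partner gene; points are samples coloured by layer and black lines the mean of 3. For Egr1 the layer A samples lie at -1.09 or above and the other samples at -2.02 or below.

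The spread among replicates differed by layer and by gene. In layer A the SD of log2 CPM was 1.96 for Fos, 1.31 for Egr3 and 1.04 for Npas4, beside a median of 0.487 over the highest transcripts of all genes, and 98.6% of these had a smaller SD than Fos. Arc was at the other end with 0.146, and 6.77% of transcripts had a smaller SD. In layer B the SD was 1.83 for Egr3 and 1.10 for Npas4 but 0.108 for Egr1, with a median of 0.489 over all. Without layer B replicate 3 these were 0.0669, 0.712 and 0.137. In layer C the members ranged from 0.167 for Nr4a1 to 0.937 for Ier2, with a median of 0.419. Over the whole fit, the biological coefficient of variation was lowest for Egr1 (0.279), followed by Arc (0.321), and highest for Ier2 (0.580), Egr3 (0.573), Npas4 (0.487) and Fos (0.478), against a median of 0.390.

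Within layer A the members tended to move together. Replicate 1 was the lowest sample for 8 of 10 members, beside 36.0% of the highest transcripts of all genes, and the highest for 0. Replicate 3 was the highest for 7 of 10, beside 38.1%. The median deviation of the members from their layer mean was -0.76 in replicate 1 and 0.59 in replicate 3 on the log2 scale, where the medians of all transcripts were 0.00 and 0.08. Replicate 1 had the fewest counts outside mitochondrial transcripts, and replicate 3 the most of that layer, and the part of depth in this order was not tested. In layer C, replicate 2 was the lowest for 7 members, beside 40.0% of all, at a median deviation of -0.28. Layer C replicate 2 was also the shallowest of its layer, with 9477078 counts outside mitochondrial transcripts.

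**Figure D4:**
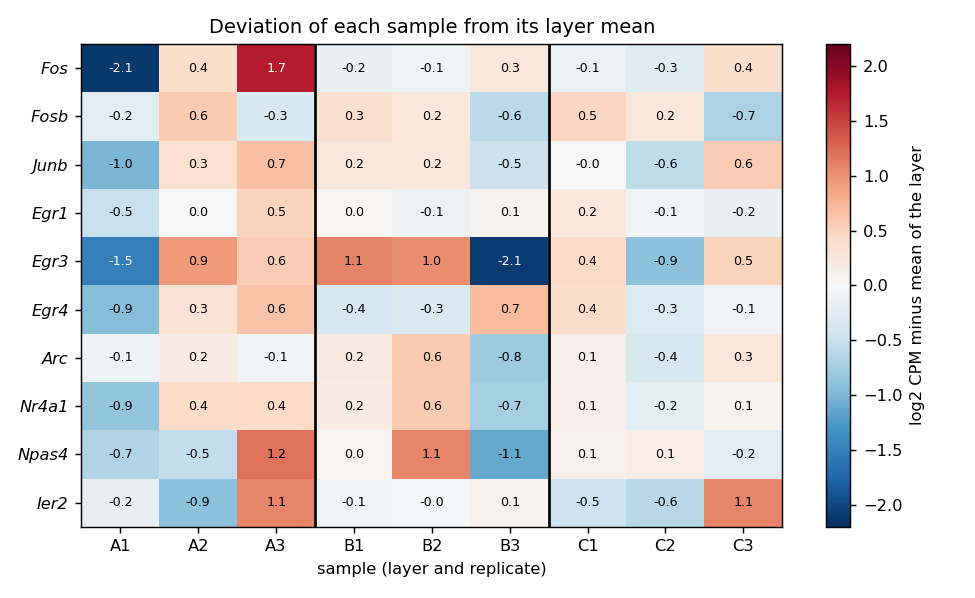
Deviation of log2 CPM from the mean of the layer for each gene (rows) and sample (columns, layer and replicate), with red above and blue below the mean. Layer A replicate 1 is at or below the mean in every row, and layer B replicate 3 is far below it for Egr3 and Npas4 while Fos and Egr4 are above it.

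Layer B replicate 3 was often at an extreme, the highest of its layer for 55.7% and the lowest for 32.6% of the highest transcripts of all genes. Among the members it was the lowest of its layer for 6, Fosb, Junb, Egr3, Arc, Nr4a1 and Npas4, and the highest for the other 4, Fos, Egr1, Egr4 and Ier2. It also held fewer reads of short annotated transcripts that end before the main one. Fos has 3 such transcripts, and the most abundant of these ends 1088 bases before the end of the full one. Its count was 38.3% and 37.8% of the full transcript's in layer B replicates 1 and 2 and 6.30% in replicate 3. In layer C the values were 25.3%, 28.3% and 22.8%, and in layer A 0% (of 2 counts), 22.2% and 17.6%. Over 4729 genes with a similar pair of transcripts, the median was 20.2% in layer B replicate 3 and 30.4% to 38.4% in the other 8 samples. Besides Egr3, the counted transcript of Junb ends well before the annotated end of its gene, by 2426 bases. Both were lowest in this replicate. So were Fosb, Arc, Nr4a1 and Npas4, whose counted transcripts reach the annotated end of the gene, as do those of Fos, Egr1, Egr4 and Ier2. The part of read position along the transcript was not tested. Without layer B replicate 3, 5 members were called for A against B (Fosb, Junb, Egr1, Egr3 and Npas4) and 4 for A against C. In that fit 7.19% and 7.05% of all tested transcripts were called lower in A, more than with all samples.

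Other genes of the response were followed in 3 lists, each gene by its highest transcript. Of 40 other rapid-response genes, 4 (10%) were lower and 5 (12.5%) higher in A than in B, with a median log2 fold change of -0.21. Against C, 3 (7.5%) were lower and 5 (12.5%) higher, with a median of -0.16. These shares are near the background of 7.35% and 12.8% against B and 5.46% and 8.87% against C, so the counts are no result about the list. Those lower in A against B were Plk2, a kinase of synaptic scaling (-1.90 ± 0.324 SE, adjusted p = 0.00124, edgeR), Dusp14, a MAP kinase phosphatase (-2.44), Egr2, another zinc-finger factor of the Egr family (-2.31), and Jun, an AP-1 subunit (-1.36). Against C, Plk2 (-1.58), Egr2 (-2.71) and Nr4a2, a relative of Nr4a1 (-2.95), were lower. Egr2 was at 0.694 ± 0.683 CPM in A (SD, n = 3), 3.77 ± 0.759 in B and 5.01 ± 1.69 in C.

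The rapid-response genes that were higher in layer A than in B were Ccn1, a secreted matrix protein (2.83 ± 0.514 SE, adjusted p = 0.00186, edgeR), Zfp36, which destabilises mRNA (2.85), Trib1, a pseudokinase (1.79), Klf4, a zinc-finger factor of vessel and stem cells (3.34), and Tiparp, a target of the aryl hydrocarbon receptor (1.69). Against C they were Ccn1 (2.02), Zfp36 (2.37), Klf4 (2.46), the vessel factor Klf2 (2.41) and the small Maf protein Maff (2.25). Klf4 was at 1.72 ± 0.614 CPM in A (SD, n = 3) and at 0.170 ± 0.0212 in B. Ccn1 was at 3.27 ± 0.101 CPM in A and at 0.457 ± 0.214 in B.

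Markers of other cell types moved with these genes. All 10 astrocyte, 10 mural and 10 meningeal fibroblast markers were higher in A than in B, as were 9 of 10 endothelial, 8 of 10 microglial and 4 of 5 tested border macrophage markers. Summed endothelial markers were 121 to 148 CPM in A, 8.85 to 23.2 in B and 17.3 to 28.9 in C. Summed astrocyte markers were 4966 to 10480 CPM in A, 686 to 1165 in B and 1229 to 1690 in C. Summed meningeal fibroblast markers were 120 to 194 CPM in A, 6.90 to 17.0 in B and 16.5 to 23.5 in C. Oligodendrocyte precursor markers were higher in 8 of 9 tested against B and 3 of 9 against C, and oligodendrocyte markers in 1 and 0 of 10. The excitatory neuron markers had median log2 fold changes of -1.29 against B and -1.46 against C, near those of the members, and 9 of 10 values were negative in each. For A against B, 4 of 10 were lower and 1, Camk2a, was higher, and for A against C 6 were lower and Camk2a was higher. Slc17a7, the vesicular glutamate transporter, was at 117 ± 39.8 CPM (SD, n = 3) in A, 249 ± 76.0 in B and 189 ± 62.7 in C, and did not pass (adjusted p = 0.0504 and 0.254, edgeR). Of 10 GABAergic neuron markers, 2 were higher in A than in B and 0 lower, and against C 1 was higher and 2 were lower, with medians of 0.11 and -0.41. The part of cell composition in the levels of the immediate early genes was not tested.

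Camk2a, the alpha subunit of calcium and calmodulin dependent kinase II, was at 2976 ± 1037 CPM (SD, n = 3) in A, 812 ± 70.9 in B and 1122 ± 321 in C. Its log2 fold change was 1.87 ± 0.332 SE against B (adjusted p = 0.00160, edgeR) and 1.41 ± 0.327 SE against C (adjusted p = 0.0135). Among 31 upstream activators, kinases, phosphatases and factors that act before the immediate early genes, together with the EGR corepressors Nab1 and Nab2, the 3 higher in A than in B were Camk2a, Nab1 and Rps6ka1. In that comparison 11 (35.5%) were lower, and against C 10 (32.3%) were lower and 2 higher. Among the highest transcripts of all genes, 7.35% were lower and 12.8% higher against B, and 5.46% and 8.87% against C. The median log2 fold changes of the list were -0.64 and -0.41. Camk2a is also one of the excitatory neuron markers. The lower ones included Mef2c (-1.73 ± 0.301 SE, adjusted p = 0.00146, edgeR), a calcium-responsive factor, the kinase Map2k1 (-1.71), and the calcineurin subunits Ppp3ca (-1.77) and Ppp3cb (-1.75). Against C they included Prkacb (-1.45), Mef2c (-1.48), Camk4 (-1.34), Ppp3ca (-1.34) and Mrtfb (-1.21). The SRF cofactors Mrtfa (-1.36 and -1.15) and Mrtfb were lower than in B and in C. Creb1 and Srf passed in neither comparison. Creb1 was at 21.8 ± 6.00, 24.0 ± 5.12 and 22.4 ± 3.17 CPM (SD, n = 3) in A, B and C, and Srf at 8.36 ± 1.37, 8.34 ± 0.913 and 6.44 ± 2.06 CPM.

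Delayed effector genes, which are induced later and act at the synapse or as secreted signals, included many that were lower in layer A. Of 28 tested, 15 (53.6%) were lower and 1 higher than in B, and 11 (39.3%) were lower and 0 higher than in C, with median log2 fold changes of -1.45 and -1.32. Among the highest transcripts of all genes, 7.35% were lower and 12.8% higher against B, and 5.46% and 8.87% against C. Nrgn of this list is also one of the excitatory neuron markers. Nptx1, a secreted pentraxin that clusters AMPA receptors, was at 30.6 ± 11.03 CPM (SD, n = 3) in A, 139 ± 29.3 in B and 86.2 ± 13.04 in C (log2 fold change -2.18 ± 0.328 SE against B, adjusted p = 0.000592, edgeR). Bdnf, the neurotrophin, was at 4.97 ± 1.71 CPM in A, 20.02 ± 5.87 in B and 16.7 ± 2.48 in C (-1.99 ± 0.355 SE against B, adjusted p = 0.00167). Kcnf1 (-1.65), the opioid precursor Penk (-2.39) and Nptx2 (-2.71) were lower against B as well, and against C the scaffold Homer1 (-1.75), Kcnf1 (-1.60), Bdnf (-1.72), Nptx1 (-1.49) and Sorcs3 (-1.55). Parm1 was the 1 higher gene, at 1.27 against B. Between layers B and C no gene of the 3 lists passed.

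**Figure D5:**
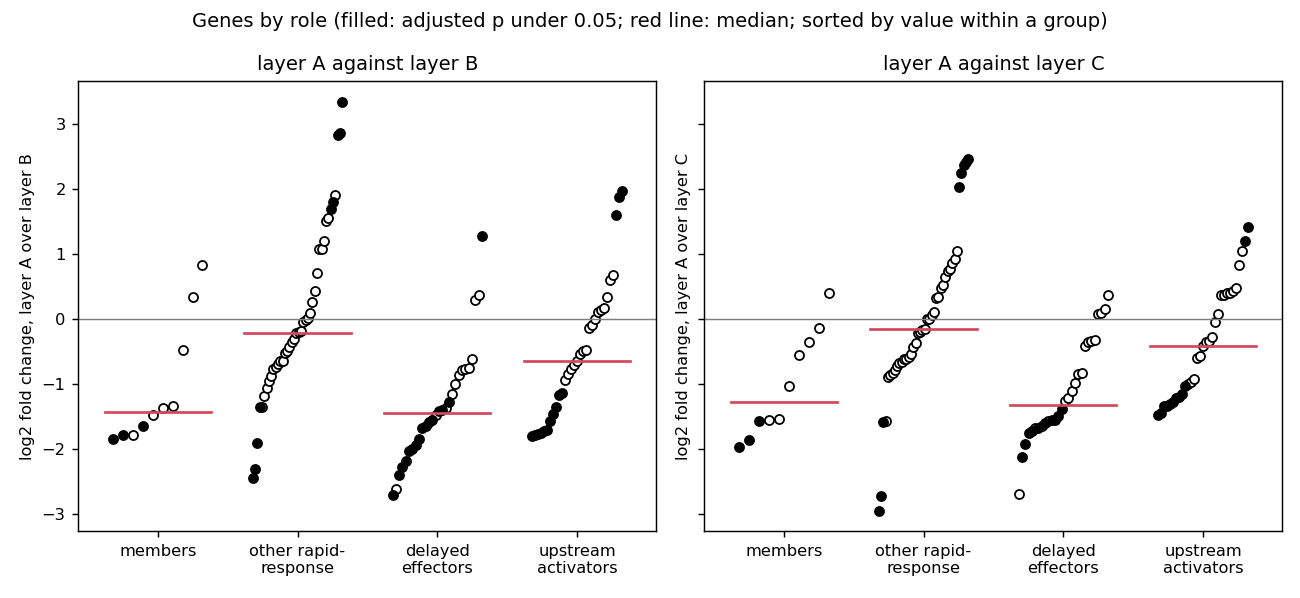
Log2 fold change of the 10 immediate early genes and of the genes of 3 lists by role, for layer A against B and A against C; each point is a gene, filled where the adjusted p was under 0.05 and sorted by value, and red lines are medians. The delayed effectors have medians of -1.45 and -1.32, close to those of the members at -1.42 and -1.28, and the other rapid-response genes reach both ends at medians of -0.21 and -0.16.

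Over the 9 samples, genes whose log2 CPM followed Fos most closely among 22253 included Drg2 (Pearson's r = 0.985), 4930524O07Rik (0.983) and Asb6 (0.980). For Arc they included Galnt7 (0.956) and Mapkapk2 (0.944). None of these is a member. The values describe samples that share layers and depth, and in both lists transcripts with no annotation here took other places among the first 5.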

How the data were processed

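Libraries were prepared by the authors from amplified RNA without strand information and aligned to mm10 with Bowtie. The submitters' processing notes also name HTSeq 0.5.3 and bcl2fastq 1.8.4, and how reads shared by transcripts were counted is not given in the sources used here. Reads of genes overlapping on either strand cannot be told apart. The deposited values are raw counts per Ensembl transcript, without normalization, and reads carry no molecular identifiers, so that the floor covers counting error only. Samples were grouped by the lettered layers of the labels. Of 95533 identifiers, 82779 (86.6%) were found in the GENCODE annotation of GRCm38. Where transcripts tied for the highest mean count, the lower identifier was used.

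The 56416 transcripts that reached 10 counts in 3 or more samples were tested with edgeR 4.0.16 in R 4.3.3 (TMM, quasi-likelihood F-test, all 9 samples, Benjamini-Hochberg adjustment over all of them). The standard error is the size of the log2 fold change over the root of F, and 95% intervals use the t distribution with 15.3 degrees of freedom. DESeq2 1.42.0 was an alternative. The code was tested on simulated data. Ratios of Arc used a pseudocount of 0.5. Of each list, genes were named that passed without overlap between layers, up to 5 in each direction by adjusted p, and some of the genes this rule names are not reported here. Slc17a7, Creb1, Srf and Mrtfa were named after their values were seen. The members, lists and tests were chosen with earlier results of these data known, and the added alternatives (total counts without mitochondrial transcripts, ratios of Arc, short transcripts) after seeing the data.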

Additional observations from a re-analysis of the deposited data

How the results depend on the processing

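Ier2 had under 10 counts in several samples and Fos 2 counts in layer A replicate 1, and a layer had 3 replicates. The calls of Egr1 held in each fit run. The number of called members for A against B was 3, and 7 with total counts alone, 5 with DESeq2 and 7 at an unadjusted p, but 2 with at least 10 counts in all samples, with only the 6 samples compared or with total counts without mitochondrial transcripts. With at least 10 counts in all samples Egr4 was not tested, since it had 8 counts in layer A replicate 1. Total counts alone called 26.8% of all transcripts lower and 3.25% higher in A, against 5.83% and 10.7% with TMM. DESeq2 called 7.76% lower and 12.9% higher in A than in B, and 6.02% and 9.73% against C. At an unadjusted p under 0.05 (edgeR), 16378 of 56416 transcripts counted for A against B, 13821 for A against C and 14258 for any difference. With at least 10 counts in all samples, 8.42% were lower in A than in B. The share was 3.75% with only the 6 samples compared and 4.19% with total counts without mitochondrial transcripts. For A against C the number of called members was 3, and 4 with DESeq2 and 5 at an unadjusted p, and for any difference 3, and 6 at an unadjusted p. With 1 sample left out it was 2 to 5 for A against B, 1 to 4 for A against C and 1 to 5 for any difference, 0 for B against C, where the layer left with 2 samples shares the spread of the others. It was 1 for A against C without layer A replicate 1 or layer C replicate 1, and 5 for A against B without layer A replicate 3 or layer B replicate 3. The cause was not tested.

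Called transcripts for A against B numbered 9329, and 16974 with total counts alone, 4914 with sums over genes, 5006 with the highest transcript of each gene (fewer features tested) and 16378 at an unadjusted p. For A against C they numbered 6389, and 3637, 3749 and 13821 with the last 3 of these. For B against C they numbered 0, and 130 with DESeq2, 10 with no filter, 5 with the highest transcripts and 2316 at an unadjusted p. With 1 sample left out they ranged from 5686 (without layer A replicate 1) to 11365 (without layer B replicate 3), from 1365 (without layer C replicate 1) to 9751 (without layer B replicate 3), and from 0 to 17 (without layer B replicate 3).

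The replicate block, with the number in the labels, gave 9184, 6384 and 0 transcripts and 4, 4 and 0 members, adding Fos at adjusted p = 0.0352 and 0.0418 (edgeR). Same-numbered samples of different layers had deviations that correlated from -0.186 to 0.243, so that the numbers were not taken as pairing the samples, and not every sample correlated best with its own number. The block also turned Egr4 between B and C to -0.04, and changed no other call of a member.

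Signs turned in differences that had not passed. With total counts alone, Arc was -0.82 and Ier2 -0.08 for A against B, Ier2 was -0.37 for A against C, and for B against C Fos was 0.14, Fosb 0.45, Egr1 0.14, Nr4a1 0.28 and Npas4 0.29. That scaling moved the median of all transcripts to -1.19, -0.76 and 0.38. For B against C, Fosb was 0.04 with at least 10 counts in all samples, 0.00 with sums over genes, 0.01 with the highest transcripts and 0.04 with total counts without mitochondrial transcripts, and Egr4 was -0.01 with upper-quartile factors. With 1 sample left out, for A against B Ier2 was -0.16 to 1.19, and for A against C Junb was -0.75 to 0.00, Arc -0.30 to 0.00 and Ier2 -0.59 to 1.43. For B against C Fos was -0.27 to 0.13, Fosb -0.34 to 0.18, Egr4 -0.41 to 0.25, Nr4a1 -0.41 to 0.16, Npas4 -0.89 to 0.18 and Ier2 -0.77 to 0.57.

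Of the levels per layer, 19 values under another scaling, the second transcript or sums moved by more than 1 SD and 89 did not. Of the SD values among replicates, 10, with total counts alone, moved by more than their own size and 140 did not. Among the log2 fold changes of members, 18 gained and 14 lost a call under an alternative with the same sign, and 552 kept both sign and call.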
